A study of Mus musculus with 2 samples.

Results

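The Usp genes encode ubiquitin-specific proteases, the most numerous family of deubiquitinases. They were taken here as the protein-coding genes of chromosomes 1 to 19 in the GENCODE mouse annotation (release M21, on the mm10 assembly) whose symbol begins with Usp and a number. The rule found 50 genes among 20780 coding genes, and all 50 were measured, with no filter on low values. The names are by symbol only: Usp6nl, which matches, encodes a GTPase-activating protein for Rab proteins and not a deubiquitinase, and the Usp genes of the X and Y chromosomes fall outside the rule. Trimethylation of histone H3 at lysine 36 (H3K36me3) had been profiled by ChIP-seq, which sequences the DNA bound to immunoprecipitated histones, in unstimulated macrophages derived from C57BL/6J bone marrow. The series held 1 group of 2 biological replicates and no other condition, with 10 ng of starting material and fragments of 350 to 480 bp for both. Both biosamples belong to 1 donor record in the labels, and the sex of the animals was not collected, so their spread may be technical only. The design held no second group, so no difference between conditions was tested, and each value is given for replicate 1 and then for replicate 2.

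Ubiquitin is attached to proteins singly or in chains, and deubiquitinases cut it off again, which spares proteins from the proteasome, ends signalling complexes or resets chromatin. In macrophages this editing is best known from the Toll-like receptor, NF-κB and interferon pathways, where ubiquitin chains and the ubiquitin-like protein ISG15 assemble or mark signalling proteins. H3K36me3 is laid down along gene bodies by Setd2, which travels with elongating RNA polymerase II, so the mark is usually found over transcribed genes, away from their promoters. The measure was the percent of a gene body, from annotated start to annotated end, that lay under the authors' H3K36me3 peaks, and the covered length in kb. A gene with at least 20% covered in both replicates is called marked, and a gene with no peak base in either replicate is called bare. In a bulk preparation, fewer cells carrying the mark and less of the mark in each cell cannot be told apart.

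Sequences of 6 places are shown first, because the comparisons below return to them. The first is the highest-enrichment peak of replicate 1 inside any marked member, in Usp18. The stretch runs over the summits of both replicates, which were 109 bp apart, at chr6:121252473-121252731 on the plus strand of mm10 (259 bases). Its 99 capitals are bases of exon 2 of 11, and the lower case is the intron that follows.
Usp18: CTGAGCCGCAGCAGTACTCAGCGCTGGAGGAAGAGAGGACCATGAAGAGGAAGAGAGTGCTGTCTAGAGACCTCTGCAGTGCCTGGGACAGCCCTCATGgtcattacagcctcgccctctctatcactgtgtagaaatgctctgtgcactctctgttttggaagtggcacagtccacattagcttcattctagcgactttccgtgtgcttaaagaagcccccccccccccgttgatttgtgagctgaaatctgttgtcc
The others are promoter sequences from RefSeq (GRCm38.p6), each 200 bases long and covering positions 250 to 51 before the start used by the RefSeq promoter window. They are written in the direction of the gene, with every CG dinucleotide in capitals. For Usp8 the RefSeq gene record begins earlier, at chr2:126707201, so part of its printed stretch lies inside that record. Usp8 and Usp50 are shown because their gene records overlap on opposite strands. Usp12 and Usp46 encode close paralogues, of which the first carried peaks and the second none. Usp17la stands for a bare multicopy cluster.
Usp8: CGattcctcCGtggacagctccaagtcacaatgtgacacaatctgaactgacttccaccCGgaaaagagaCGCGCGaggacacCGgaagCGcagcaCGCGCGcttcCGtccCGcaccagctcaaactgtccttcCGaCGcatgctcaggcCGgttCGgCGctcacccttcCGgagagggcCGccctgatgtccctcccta
Usp50: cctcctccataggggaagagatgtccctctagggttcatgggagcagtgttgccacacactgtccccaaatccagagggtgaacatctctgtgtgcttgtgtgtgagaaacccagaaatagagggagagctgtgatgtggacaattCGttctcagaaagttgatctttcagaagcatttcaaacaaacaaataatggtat
Usp12: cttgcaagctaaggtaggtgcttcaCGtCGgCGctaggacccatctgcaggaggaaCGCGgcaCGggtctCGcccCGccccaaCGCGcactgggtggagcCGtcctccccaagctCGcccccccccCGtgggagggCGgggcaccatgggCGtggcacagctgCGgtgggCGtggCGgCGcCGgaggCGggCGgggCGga
Usp46: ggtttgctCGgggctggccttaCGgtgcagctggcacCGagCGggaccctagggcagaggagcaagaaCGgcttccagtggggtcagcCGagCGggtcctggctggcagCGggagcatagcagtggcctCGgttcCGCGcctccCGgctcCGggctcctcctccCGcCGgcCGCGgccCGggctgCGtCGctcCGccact
Usp17la: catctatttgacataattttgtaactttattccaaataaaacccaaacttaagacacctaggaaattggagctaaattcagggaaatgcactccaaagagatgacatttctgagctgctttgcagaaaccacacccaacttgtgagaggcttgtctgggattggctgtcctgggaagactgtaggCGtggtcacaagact
They lie at chr2:126707078-126707277 (plus strand), chr2:126783511-126783710 (minus), chr5:146795007-146795206 (minus), chr5:74068462-74068661 (minus) and chr7:104856766-104856965 (plus), and hold 20, 1, 23, 21 and 1 CG dinucleotides.

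The Usp genes fell into 10 marked genes, 28 with a peak but not marked, and 12 bare genes. The marked genes were 20% of the members, against 8.03% of all coding genes. Bare genes were 24% of the members, against 59.8% of all coding genes. The replicates set the 20% limit very differently: 10 members reached it in replicate 1 (8.06% of all coding genes did) and 26 in replicate 2 (24.6% of all), with 16 members reaching it in replicate 2 only and 0 in replicate 1 only. The median covered share of the 50 genes was 5.04% in replicate 1 and 21.1% in replicate 2, and both medians over all coding genes were 0. All 38 members with a peak were covered further in replicate 2 than in replicate 1. The whole peak lists differed in the same direction, with 32098 peaks over 28.5 Mb in replicate 1 and 58505 peaks over 79.4 Mb in replicate 2. Sequencing depth is unknown, since peak lists carry no read counts. Despite this gap the order of the members was close between the replicates (Spearman rho 0.967 and Pearson r 0.914 over the 50 genes, which share the same libraries, given as a description). Both values include the 12 bare genes, which are at 0 in both replicates, and no value without them is given. When replicate 2 was reduced to as many peaks as replicate 1, the same 10 genes were marked, while the replicate 2 median fell to 11.0% and the bare genes numbered 15. Such a reduction could remove marked genes but not add any, because replicate 1 alone already held the set to these 10.

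**Figure D1:**
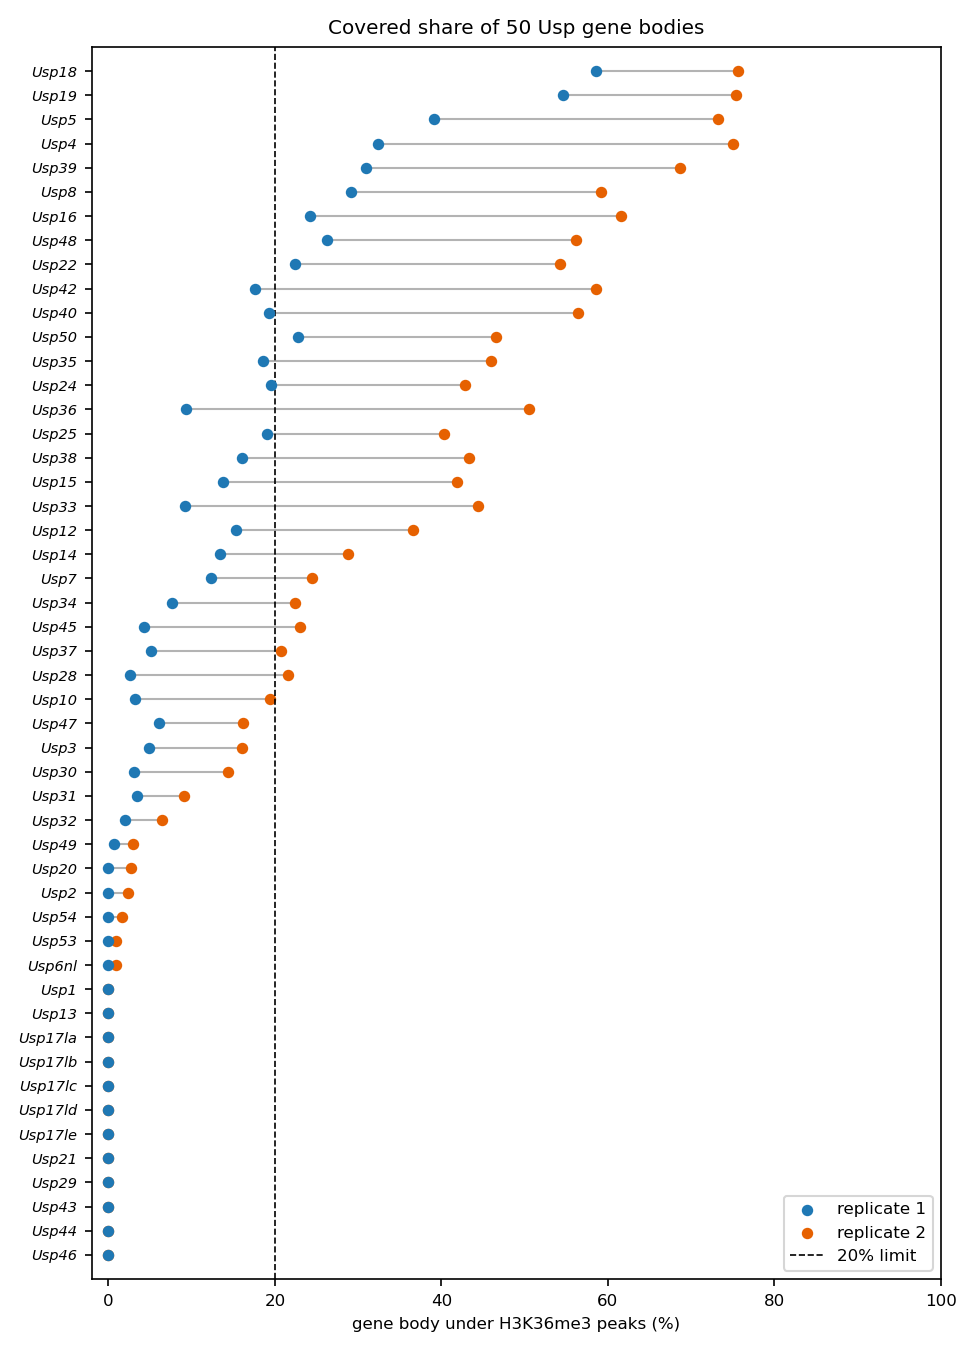
Percent of the gene body under H3K36me3 peaks for each of the 50 Usp genes (rows) in replicate 1 (blue) and replicate 2 (orange), joined by a grey line; the dashed line is the 20% limit. Every joined pair has replicate 2 on the right, 10 genes lie beyond the limit in both replicates, and the 12 lowest rows are at 0 in both.

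The highest coverage of the family was in Usp18, the protease that removes ISG15 from proteins and restrains signalling from the type I interferon receptor. Its body (chr6:121245906-121270917, plus strand, 25.0 kb, up to 11 exons) was covered over 58.6% in replicate 1 and 75.7% in replicate 2, which is 14.7 kb and 18.9 kb. By the mean of the replicates it ranked 46 among the 20780 coding genes. The peak whose sequence opens the series above spanned chr6:121251845-121253000 (1156 bp) with its summit at 27.0% of the body, and 22.1% of its bases were exonic. Its deposited enrichment, the authors' ratio over background, was 5.83, and that of the overlapping peak in replicate 2 was 5.73. Isg15 itself, whose body is 1.40 kb long, had no peak in either replicate.

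The other marked member of the group assigned to innate immunity and NF-κB was Usp4, which acts on signalling proteins of the NF-κB and TGF-β pathways. Its body (chr9:108347853-108392545, plus strand, 44.7 kb) was covered over 32.4% in replicate 1 and 75.0% in replicate 2, or 14.5 kb and 33.5 kb. The gap of 42.6 percentage points was the widest of the 50 genes. The replicates thus placed Usp4 well below Usp18 (58.6%) in the first and beside it (75.7%) in the second. Of the 10 genes in this group, 5 reached 20% in replicate 2, against 52% of all Usp genes and 24.6% of all coding genes. Each role group holds few genes, and no difference between groups was tested. Usp25, which acts on TRAF proteins in cytokine signalling, stood just outside the limit with 19.1% and 40.3% (19.7 kb and 41.5 kb), and held the highest peak enrichment of any member in replicate 2, 7.47. Usp38 had 16.1% and 43.3%, and Usp15, the paralogue of Usp4, 13.8% and 41.8%. Usp31 was lower, at 3.43% and 9.12%, and Usp20 and Usp2 had peaks in replicate 2 only, over 2.65% and 2.33%. Usp13 and Usp29 were bare.

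The next 3 marked genes belong to the group working at the endosome, endoplasmic reticulum, mitochondrion, proteasome and on free chains. In it 6 of 8 members reached 20% in replicate 2, against 52% of all Usp genes and 24.6% of all coding genes. In the same group 0 were bare, against 24% and 59.8%. Usp19, which has a form anchored in the endoplasmic reticulum membrane, was covered over 54.6% and 75.3% of its 11.7 kb (chr9:108490602-108502337, plus strand), or 6.41 kb and 8.84 kb. Usp5, which takes apart free ubiquitin chains, was covered over 39.1% and 73.2% of its 14.5 kb (chr6:124815019-124829484, minus strand), or 5.66 kb and 10.6 kb. Usp8, which removes ubiquitin from receptors at the endosome, was covered over 29.1% and 59.1% of its 52.0 kb (chr2:126707328-126759297, plus strand), or 15.1 kb and 30.7 kb. Usp18 and Usp19 were the only 2 members above 50% in both replicates. Outside the limit, Usp35 had 18.6% and 46.0%, and Usp33 9.17% and 44.4%. Usp14, the deubiquitinase bound to the proteasome, had 13.3% and 28.7%. Usp30, an enzyme of the outer mitochondrial membrane that opposes mitophagy, had 3.10% and 14.3%, and Usp32 had 1.93% and 6.49%.

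Among the 8 genes assigned to histones and chromatin, 2 were marked, 4 reached 20% in replicate 2 and 2 were bare. These shares were 20%, 52% and 24% over all Usp genes and 8.03%, 24.6% and 59.8% over all coding genes. Usp16, a deubiquitinase of histone H2A, was covered over 24.2% in replicate 1 and 61.5% in replicate 2 of its 28.8 kb (chr16:87454703-87483517, plus strand), or 6.97 kb and 17.7 kb. Usp22, the catalytic subunit of the deubiquitinase module of the SAGA coactivator, was covered over 22.4% and 54.2% of its 23.3 kb (chr11:61151785-61175055, minus strand), or 5.21 kb and 12.6 kb. The lower value of both genes lay only a few points above the limit. Usp42 and the nucleolar enzyme Usp36 lay below it in replicate 1 and far above it in replicate 2. Usp42 had 17.5% and 58.5%, and Usp36 9.36% and 50.5%, gaps of 41.0 and 41.1 points that follow Usp4's. Usp3 had 4.92% and 16.0%, and Usp49 0.646% and 2.92%. Usp21 and Usp44 were bare.

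The 10 genes assigned to DNA repair and p53 held 1 marked gene, 6 at 20% in replicate 2 and 2 bare genes. Over all Usp genes the shares were 20%, 52% and 24%, and over all coding genes 8.03%, 24.6% and 59.8%. Usp48, which removes ubiquitin from histone H2A where BRCA1 adds it, was covered over 26.2% and 56.2% of its 64.8 kb (chr4:137593755-137658537, plus strand), or 17.0 kb and 36.4 kb. Usp12 followed with 15.4% and 36.6%, and Usp7, which stabilises both p53 and its ligase MDM2, with 12.4% and 24.4%. Usp45 had 4.27% and 23.0%, Usp28 2.59% and 21.5%, and Usp37 5.15% and 20.8%. These 5 genes were counted at 20% in replicate 2 alone. Usp10 had 3.15% and 19.4%, and Usp47 6.10% and 16.1%. Usp1 and Usp46 were bare.

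Usp39, the sole member assigned to splicing, is a component of the spliceosome that lacks the catalytic residues of its family. It was covered over 30.9% in replicate 1 and 68.6% in replicate 2 of its 26.5 kb (chr6:72318678-72345184, minus strand), or 8.20 kb and 18.2 kb. It held the highest-enrichment peak of replicate 2 within a marked member, at chr6:72321385-72322810 (1426 bp), with an enrichment of 6.49 against 3.25 for the overlapping peak of replicate 1. The summit stood at 88.4% of the body, and 0.491% of the peak's bases were exonic. The top peaks of the replicates thus lay in different genes.

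The 8 remaining genes had no role assigned. Usp24, one of the longest enzymes of the family, carried the most covered length of all members, 24.5 kb in replicate 1 and 53.5 kb in replicate 2, and with 19.6% and 42.8% of its 125.1 kb it was the gene closest below the limit. Usp40 had 19.3% and 56.4%, and Usp34 7.57% and 22.4% of its 183.7 kb. Usp54, Usp53 and Usp6nl had a peak in replicate 2 only, over 1.64%, 0.956% and 0.886%. Just inside the limit stood Usp22, Usp50 and Usp16, with 22.4%, 22.8% and 24.2% in replicate 1, and just outside it Usp24, Usp40, Usp25, Usp35, Usp42, Usp38 and Usp12, with 15.4% to 19.6%. The limit therefore cuts through a run of genes with similar coverage in replicate 1.

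Usp50, a little-studied gene of the family, passed the limit through the body of Usp8. Its record (chr2:126709096-126783470, minus strand, 74.4 kb) holds 96.6% of Usp8 on the opposite strand. ChIP-seq of a histone mark does not tell strands apart, so peaks there count for both genes. Usp50 was covered over 22.8% and 46.6% (16.9 kb and 34.6 kb), of which 15.1 kb and 30.7 kb lay under Usp8. Its 24.2 kb outside Usp8 were covered over 7.50% and 16.2%, all within 3.91 kb past the end of Usp8. Its longest transcript was covered over 3.85% and 8.10%, and its shorter RefSeq body over 5.44% and 9.63%. Of the promoter sequences above, that of Usp8 holds 20 CG dinucleotides and that of Usp50 holds 1. Sharing was also near complete at 3 thinly covered members: 100% of Usp2, 99.0% of Usp10 and 95.0% of Usp49 lay under another coding record, chiefly Gm49380, Gm20388 and Gm20517. In Usp37, whose body is shared over 24.1% with Cnot9, Plcd4 and Vil1, the unshared bases were covered over 1.41% and 16.7%. Usp30, shared over 45.4% with Alkbh2 and Svop, went the other way. Its unshared bases were covered over 5.69% and 26.3%, against 3.10% and 14.3% for its whole body. Usp50 was left out of the position results that follow for the marked Usp genes, which leaves 9 marked genes.

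In all but 1 of the marked genes, the first part of the body held no peak. Over 10 equal bins from start to end, the 9 marked genes were covered in bin 1 by a mean of 1.21% in replicate 1 and 4.64% in replicate 2. Both means come from Usp4, with 10.9% and 41.7%, and the other 8 genes were at 0 there. In replicate 1 coverage peaked in bin 4, at 59.6%, and ended at 36.8% in bin 10. In replicate 2 it stood at 87.9% in both bin 4 and bin 9, and ended at 77.7%. Over all 1594 marked coding genes of at least 5 kb, bin 1 was as low, with 1.15% and 4.24%, but the rise was slower, to 27.6% and 59.4% in bin 4 and a maximum of 48.4% and 81.0% in bin 8. The sets were not matched for body length, on which the place of a bin in kb depends. The 9 genes also differed widely, from 0% (Usp16) to 96.7% (Usp18) in bin 4 of replicate 1. The 28 genes with a peak below the limit rose towards their ends, from 0.384% and 1.45% in bin 1 to 15.5% and 42.4% in bin 10. The first peak of a marked gene began at a median of 6.51 kb from the start in replicate 1 (range 3.11 to 21.4 kb) and 4.58 kb in replicate 2 (2.07 to 12.6 kb). Of all covered bases of the members, here with Usp50 included, 66.8% lay in the 3′ 50% of the body by the mean of the replicates. Bases shared by Usp8 and Usp50 count for both genes in that share. Exons were covered further than introns in 8 of the 9 marked genes in each replicate, with medians of 49.2% for exons and 27.6% for introns in replicate 1, and of 72.4% and 63.4% in replicate 2. Exon and intron bases were not matched for their position along the gene.

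**Figure D2:**
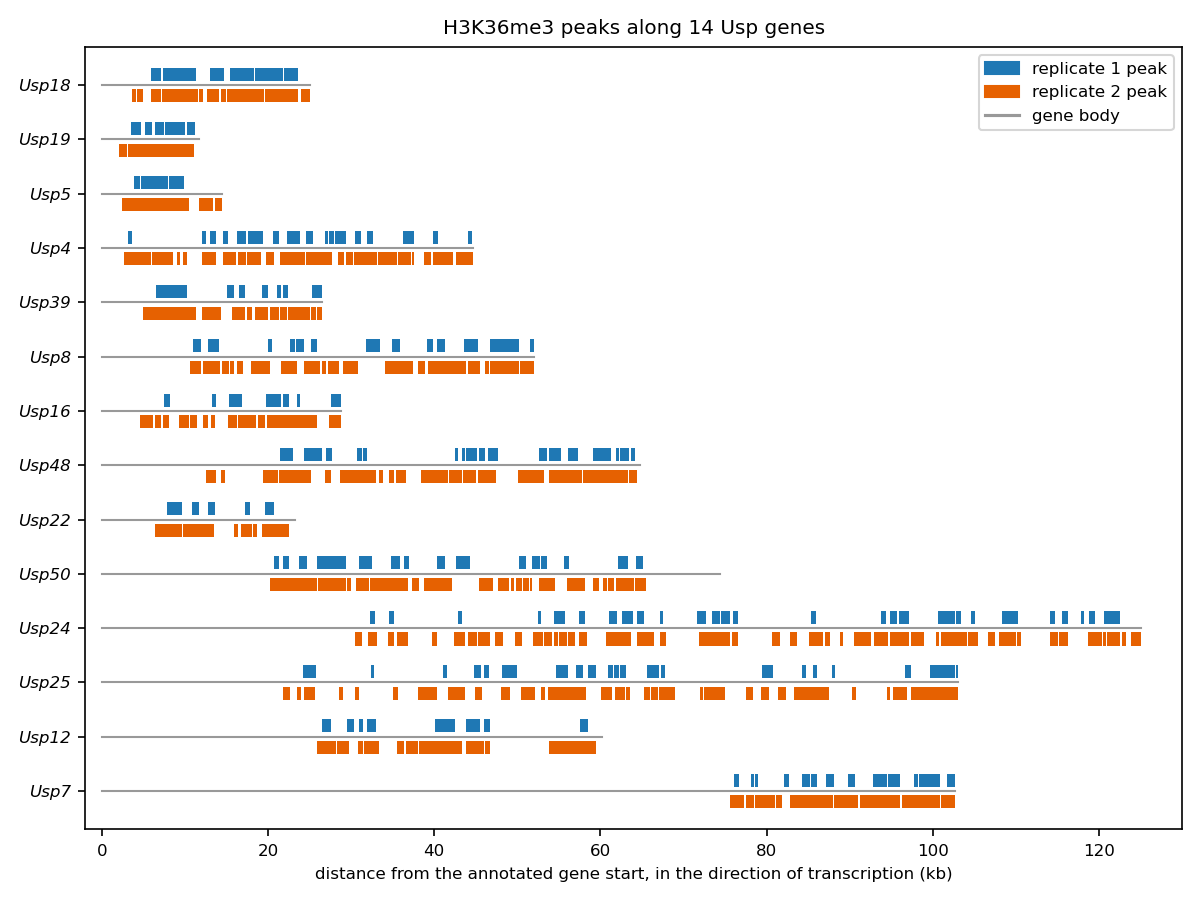
Each row is 1 of 14 Usp genes (the 10 marked ones, then Usp24, Usp25, Usp12 and Usp7); the grey line is the gene body from its annotated start, in kb in the direction of transcription, and blocks are peaks of replicate 1 (blue, above) and replicate 2 (orange, below). The first kb of the bodies hold no peaks in either replicate, and in Usp7 all peaks begin past 75 kb.

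**Figure D3:**
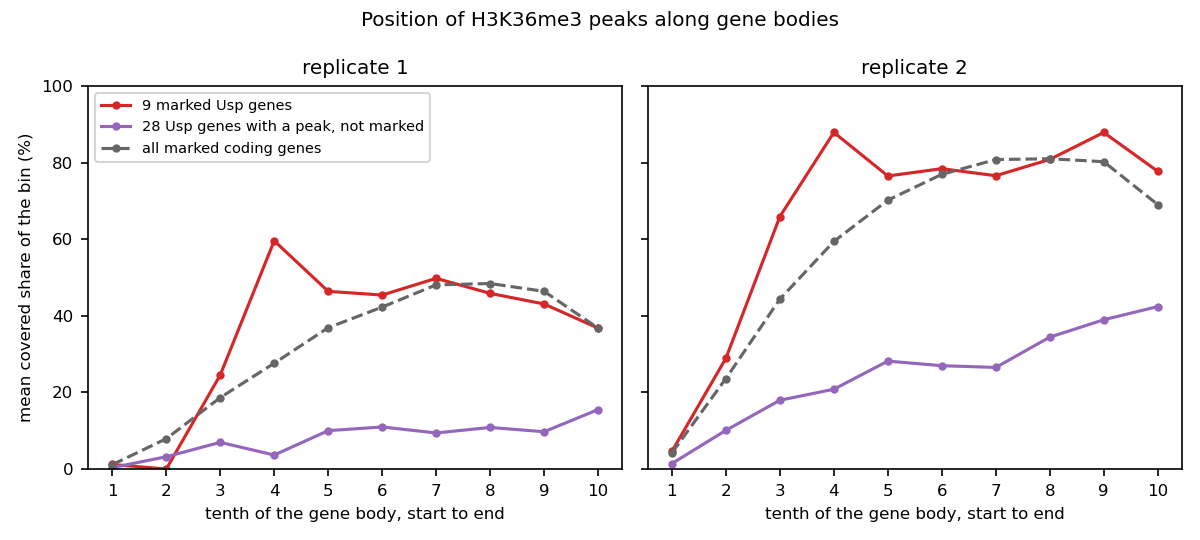
Mean percent covered in each of 10 bins along the gene body, in replicate 1 (left) and replicate 2 (right), for the 9 marked Usp genes without Usp50 (red), the 28 Usp genes with a peak that were not marked (purple) and all 1594 marked coding genes of at least 5 kb (dashed grey). The red line reaches 59.6% and 87.9% in bin 4, where the grey line stands at 27.6% and 59.4%, and in replicate 2 the red line is as high again in bin 9. The sets were not matched for body length.

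Where the annotation puts the gene start changed the percent of a few members. The peaks of Usp7 all lay in the last part of its 102.7 kb record, from 76.0 kb in replicate 1 and 75.6 kb in replicate 2. The RefSeq promoter window of Usp7 starts the gene 54.0 kb further in, and the 48.8 kb from there to the end were covered over 26.1% and 51.5%, which would pass the limit. The body of the RefSeq gene record, 68.4 kb long, was covered over 18.6% and 37.8%, which would not. Usp30 rose from 3.10% and 14.3% over its GENCODE record to 7.93% and 35.7% over its RefSeq body. Usp42 went the other way, from 17.5% and 58.5% to 7.79% and 26.0% in a longer RefSeq body. With promoter window starts in place of the GENCODE starts wherever RefSeq gave one, 11 genes were marked, the same 10 and Usp7.

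Most marked members had bodies of 10 to 50 kb. Of the 17 members of 10 to 50 kb, 7 were marked, against 13.0% of all coding genes of that length. Of the 18 members of 50 to 100 kb, 3 were marked, against 6.42%. Of the 9 members of 100 kb or more, 0 were marked (1.52% of all such genes were), although 5 of them reached 20% in replicate 2, against 10.1% of all such genes. The 6 members under 10 kb, which are the 5 Usp17l genes and Usp21, were all bare, as were 77.7% of all coding genes under 10 kb, of which 4.76% were marked. Among the 38 members with a peak, body length and covered percent had a Spearman rho of -0.40 in replicate 1 and -0.54 in replicate 2, and body length and covered kb one of 0.13 and 0.30 (descriptions over genes of the same libraries; percent has length as its denominator). Marked members had a median body of 27.7 kb (11.7 to 74.4 kb) and bare members one of 10.6 kb (2.35 to 236.6 kb). The bare set thus held both the shortest and the longest Usp gene.

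**Figure D4:**
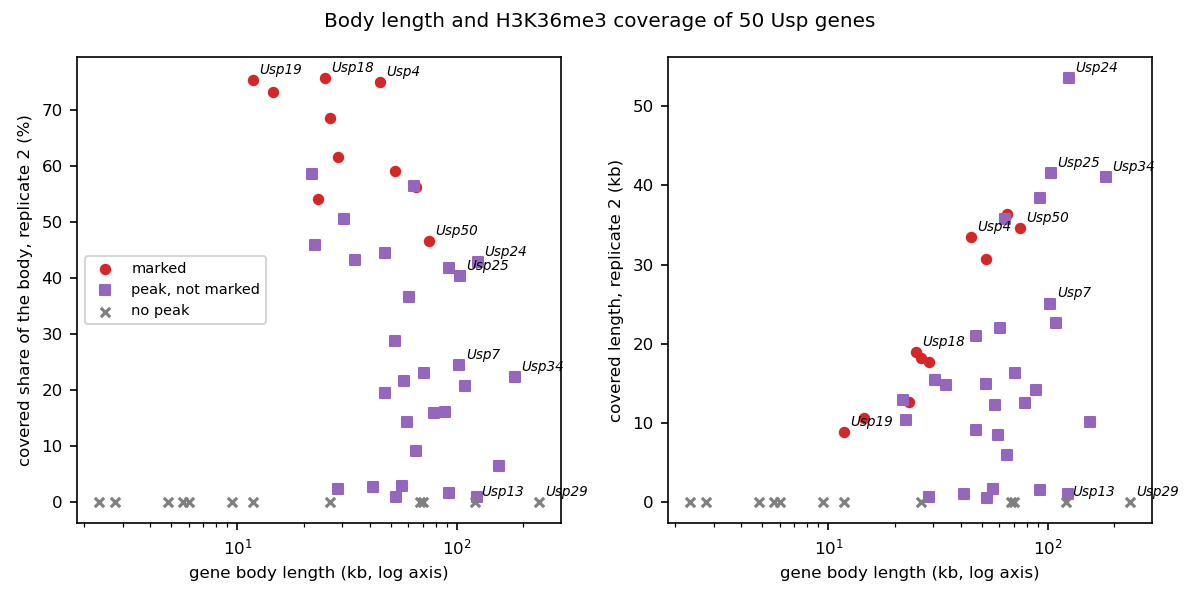
Body length of the 50 Usp genes (x, kb, log axis) against the percent covered (left) and the kb covered (right) in replicate 2; marked genes are red circles, other genes with a peak purple squares, bare genes grey crosses. Usp24 has the most covered kb (53.5) without being marked, and the bare Usp29 is the longest gene.

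Of the 12 bare genes, 3 had a replicate 2 peak within 5 kb and 9 did not. Usp1, which with its partner Wdr48 removes ubiquitin from PCNA and FANCD2 in DNA repair, had its nearest replicate 2 peak 3 bp past the annotated gene end. That peak, at chr4:98935547-98936226 (680 bp, enrichment 3.25), covered 68.0% of the first kb past the end. Usp21, another histone H2A deubiquitinase, had peaks at 4.50 kb in replicate 1 and at 0.694 kb in replicate 2, the latter in Ufc1. Usp44, a deubiquitinase of histone H2B, had peaks at 3.78 kb and 3.55 kb, both in Metap2. These peaks belong to neighbouring records or to none, and no base of the 3 bodies was under a peak of either replicate.

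The other bare genes stood well away from peaks in both replicates. The nearest peaks were at 48.2 kb and 47.8 kb for Usp43, at 66.8 kb and 63.9 kb for Usp13 and at 150.1 kb and 147.4 kb for Usp29, an imprinted gene next to Peg3. Usp46, which like Usp1 and Usp12 works with Wdr48, had none within 357.5 kb in replicate 1 and 358.0 kb in replicate 2. The 5 Usp17l genes of chromosome 7 (Usp17la, Usp17lb, Usp17lc, Usp17ld and Usp17le), whose relatives were first described as cytokine-inducible genes of lymphoid cell lines, were 261.2 to 836.7 kb from a peak. The Usp17l genes are near-identical copies, and how reads matching several places were treated is not given in the sources used here, so their lack of peaks is uncertain.

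CpG-rich promoters stood before both marked and bare members, the Usp17l genes apart. Promoter windows of 300 bases, 250 before the start that RefSeq's window uses and 50 after, were matched to 38 of the 50 members. The members without one were Usp18, Usp5, Usp39, Usp22, Usp42, Usp33, Usp14, Usp53, Usp1, Usp43, Usp44 and Usp17le. CG was counted as these 2 letters, which read the same on both strands. At least 15 CG dinucleotides stood in 35.2% of all 31396 windows of chromosomes 1 to 19. Those windows were not filtered for coding genes, so that share is not a like-for-like baseline for the members. They stood in 5 of 6 windows of marked members, the exception being Usp50, and in 20 of 25 windows of members with a peak that were not marked, where Usp6nl has 2 windows. All 4 windows of bare members outside the Usp17l genes held them too, with 17 to 38 CG, and 0 of 4 windows of Usp17l genes did, with 0 or 1. The printed sequences show both kinds: Usp12 and the bare Usp46 have 37 and 38 CG in their full windows, and Usp17la has 1. No more than the letters of these windows is described.

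Close paralogues were set side by side after the values had been seen. Of 9 such pairs, 6 had peaks in both members and 3 had 1 bare member. Usp5 had 39.1% and 73.2% where its paralogue Usp13 was bare. Usp12 had 15.4% and 36.6% where Usp46 was bare. Usp49 had 0.646% and 2.92% where Usp44 was bare, so that pair differed little. Usp33 and Usp20 parted with 9.17% and 44.4% against 0 and 2.65%. Usp24 and Usp34, Usp25 and Usp28, and Usp4 and Usp15 each had peaks in both replicates, with the first of each pair above the second. Usp42 and Usp36 were nearest to each other among the pairs with high coverage, at 58.5% and 50.5% in replicate 2.

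**Figure D5:**
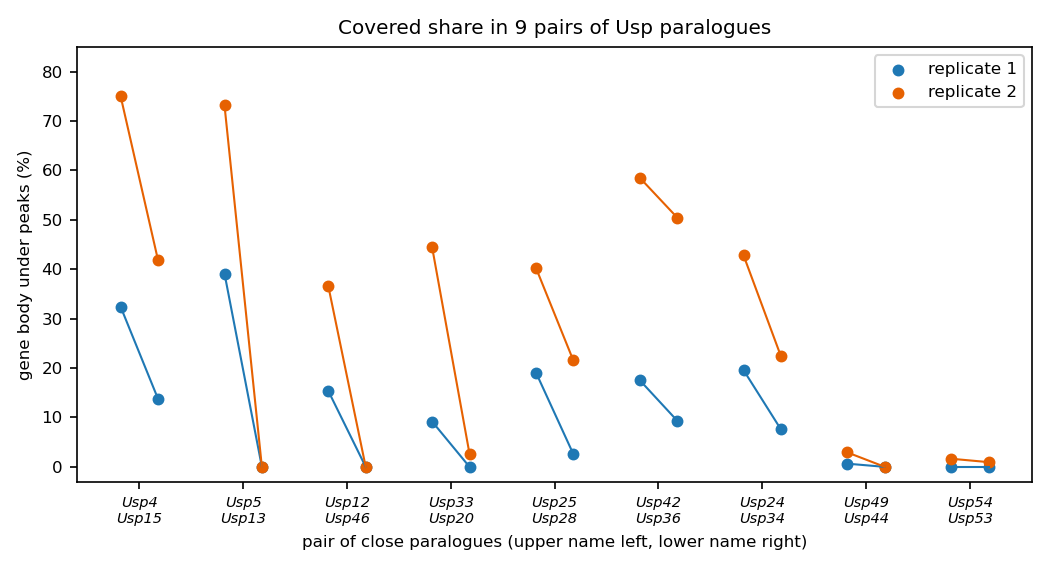
Percent of the gene body under peaks in replicate 1 (blue) and replicate 2 (orange) for 9 pairs of Usp paralogues; each line joins the upper-named gene (left) to the lower-named gene (right). The lines from Usp5 to Usp13 and from Usp12 to Usp46 fall to 0 in both replicates.

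Genes listed under other deubiquitinase families were counted in the same way, with no test of a difference. Of 35 such genes on chromosomes 1 to 19, 8 were marked, 18 reached 20% in replicate 2 and 6 had no peak. Over all coding genes the shares were 8.03%, 24.6% and 59.8%. The medians of the 35 genes were 5.17% and 21.0%, beside the 5.04% and 21.1% of the Usp genes. The genes listed as JAMM held 4 of the 8 marked genes (Cops5, Stambp, Mysm1 and Eif3f), among 8 members. The listing is by family, and whether each gene, Eif3f and Eif3h included, acts as a deubiquitinase was not checked. The OTU family held 1 (Otub1). Bap1, a histone H2A deubiquitinase, was covered over 65.3% and 79.9% of its body, and Cops5, the catalytic subunit of the COP9 signalosome, over 45.2% and 65.2%. The negative regulators of NF-κB Cyld and Tnfaip3 (A20) were below the limit in replicate 1, with 7.12% and 13.1%, and above it in replicate 2, with 32.9% and 36.4%. Of 7 partners of Usp enzymes, 2 were marked, against 8.03% of all coding genes. Wdr48, the shared activator of Usp1, Usp12 and Usp46, had 31.7% and 55.7%, and Atxn7l3, which sits with Usp22 in the SAGA module, had 21.8% and 43.6%. Of 5 genes encoding ubiquitin or ISG15, 0 were marked, where 8.03% of all coding genes were.

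The labelled cell type was checked with marker genes. Of 10 macrophage markers, 6 were marked and 10 reached 20% in replicate 2, against 8.03% and 24.6% of all coding genes. Among the 6, Csf1r had 25.0% and 54.7%. Of 18 markers of T cells, B cells, fibroblasts and neutrophils, 17 had no peak in either replicate. Csf3r, a neutrophil marker, was marked with 22.8% and 68.2%. A lack of peaks is common, at 59.8% of all coding genes and 77.7% of those under 10 kb. Some of these markers are short, such as S100a8 at 1.06 kb. The part of other cells in the coverage of the Usp genes was not tested.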

How the data were processed

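The authors deposited 4 H3K36me3 peak lists on mm10: 1 per replicate, 1 pooled and 1 of replicated peaks, per the labels. Each deposited peak carries an enrichment (a ratio over background), a −log10 p, a −log10 q and a score, which equals 10 times the −log10 p rounded down. For aligner and caller, nothing is given in the sources used here. The lists hold no counts, so depth is unknown and only the 2 replicates show precision. Bases under peaks were summed over each GENCODE M21 gene body (the longest record per symbol) and checked on simulated data and with bedtools 2.31.1. Python 3.11.15, numpy 2.4.6, scipy 1.17.1 and matplotlib 3.10.9 were used. The control experiment was not analysed here.

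The members, lists and alternatives were chosen with earlier results of these data known. Alternatives were stricter peaks, combined lists, each replicate alone, equal list lengths, other limits and other gene bodies. Paralogue pairs, leaving out Usp50, RefSeq bodies and promoter starts were chosen after seeing the data. The genes named are all marked and bare members, the 5 largest replicate gaps, members within 5 points of the limit and the leader of each role group. The remaining members were also named so that each is accounted for. No test was run, because there was 1 group.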

Additional observations from a re-analysis of the deposited data

Results flagged for a closer look

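Usp1 is listed because the authors' list of replicated peaks places a peak inside a body that is bare in both replicates' own lists. Apart from this item, that list is used only below, where the processing is varied. That peak, at chr4:98928775-98929195 (421 bp, deposited enrichment 2.73), covered 3.59% of the Usp1 body. The pooled list had no peak in the body, and its nearest one began 17 bp past the gene end.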

How the results depend on the processing

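The number of marked genes, 10, was 3 with a −log10 q of at least 5 (Usp18, Usp19 and Usp5), 6 with an enrichment of at least 3, 27 with the authors' replicated list and 27 with their pooled list, 20 with marking from 10% and 2 from 50%. Leaving out 1 replicate gave 10 to 26 marked genes, the higher without replicate 1, against 8.06% and 24.6% of all coding genes. For the other settings no share of all coding genes is given, so those counts cannot be read as particular to the Usp genes. All 10 were among the marked genes of both combined lists, which derive from the alignments of the same replicates and so are no separate check. Bases under another coding gene left out gave 8, since that step removes nearly all of Usp8, and the longest transcript, the RefSeq body or leaving out Usp50 gave 9. Bare genes numbered 7 without Usp6nl and the Usp17l genes. The replicated and pooled lists also raised the replicate 1 median of 5.04% to 27.1% and 28.3%, while the −log10 q limit lowered it to 0 and the enrichment limit to 2.86%. Both combined lists raised the covered length of 479 kb (mean of the replicates) to 802 and 834 kb. That length was 271 kb without replicate 2 and 687 kb without replicate 1. All these lengths count the bases shared by Usp8 and Usp50 for both genes. Counted once, the covered bases came to 256.4 kb in replicate 1 and 656.5 kb in replicate 2. The 3′ share of 66.8% stood at 66.8% with the replicated list and 68.0% without shared bases. The cause of these shifts was not tested. No paired analysis was possible because there was 1 group. The unknown depth limits every comparison of the replicates, and the medians per replicate have no value without that replicate.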

Other observations

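Among the marked genes, 78.6% (Usp8) to 100% (Usp5) of the bases covered in replicate 1 were also covered in replicate 2, and 36.7% (Usp16) to 76.5% (Usp18) the other way. In Usp32, of which replicate 2 covered 6.49%, the shares were 21.3% and 6.34%. Over all members, with the bases shared by Usp8 and Usp50 counted once, they were 81.9% and 32.0%. These shares move with how much of a body each replicate covers, and no difference between genes was tested.

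Coverage ran past the gene end at some marked members. In the first kb past the annotated end, Usp16 had 88.0% covered in replicate 1 and 100% in replicate 2, where the neighbouring Cct8 overlaps its end. Usp8 had 44.5% and 100%, and Usp39 39.5% and 100%. Usp18, Usp19 and Usp4 had none there in replicate 1 and 44.3%, 77.4% and 52.4% in replicate 2. Usp48 and Usp22 had none in either replicate.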
